A study of Mus musculus with 16 samples.

Results

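Adult lungs of mice that had been exposed to second-hand smoke only before birth were compared with lungs of mice that had breathed filtered air throughout life. The exposed animals carry the label SA (smoke in utero, air as adults) and the controls the label AA (air at both times). These labels chose 8 of the 16 arrays of the study, 4 in each group. The other arrays came from mice given smoke as adults, after air in utero (AS, 4 arrays) or after smoke in utero (SS, 4 arrays), and are used here where they bear on SA and AA. All animals were male Balb/c mice, an inbred strain, of 15 weeks. Each array held total RNA of the left lung of 1 animal. Exposure was to sidestream smoke, which drifts from the burning end of a cigarette, at a particle load of 10 mg/m3 for 5 hours on each of 7 days a week, per the labels' protocols. Neither the number of litters behind the 4 SA animals nor a date, batch or hour of lung collection is given in the labels, so litter and group cannot be told apart, and a p-value measures only the spread between these animals.

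The branching airways of the lung form before birth and most alveoli after it, so an exposure of the mother reaches the organ while it is still being built. Smoke carries aromatic hydrocarbons, which are sensed by the aryl hydrocarbon receptor (AhR), oxidants, which activate the antioxidant regulator NRF2, and nicotine, which crosses the placenta and binds nicotinic acetylcholine receptors. In children, exposure before birth is a known risk for wheeze and reduced lung function. The comparison of SA with AA asks what remains of such an exposure in the RNA of the adult lung once no further smoke is given.

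Values are log2 expression values, 1 per probe set (a group of probes for 1 transcript), as the authors deposited them, and a difference is always the SA mean minus the AA mean. A difference of 1 means a doubled level in SA. An error written after ± is the standard error of the fit with limma, a linear model that borrows information on the spread across all probe sets and, here, across all 4 groups. Adjusted p-values are by Benjamini-Hochberg over all 45037 probe sets, and the threshold was 0.05. The 16 arrays had medians between 6.90 and 6.93. A pair of AS arrays and a pair of SS arrays differed by little more than technical noise and were each counted as 1 sample, which did not touch the 4 AA and 4 SA arrays. Cell type markers fitted lung: the surfactant gene Sftpc of alveolar type 2 cells lay between 15.01 and 15.09 on the 8 arrays, the club cell gene Scgb1a1 between 14.91 and 14.97, the alveolar type 1 gene Ager between 14.34 and 14.45 and the endothelial gene Pecam1 between 12.01 and 12.19. SA replicate 4 stood apart from the rest. Its values differed from the mean of the other SA arrays with an SD of 0.207 over all probe sets, while the same measure was 0.156 to 0.186 for the other 7 arrays.

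No probe set differed between SA and AA after adjustment (limma, 0 of 45037, or 0%). The smallest adjusted p was 0.311, at a probe set without a gene name, and the smallest for a named gene was 0.322, for the cell cycle inhibitor Cdkn2c. At an unadjusted p under 0.05, 1249 probe sets were higher in SA (2.77%) and 1559 lower (3.46%). A test without limma's sharing of the spread called 3 probe sets, Cdkn2c at 0.33, Fam210b at 0.24 and Zbtb17 at 0.19. All 4 SA values lay on one side of all 4 AA values for 1658 probe sets (3.68%), 896 higher (1.99%) and 762 lower (1.69%).

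The differences were small and the data bounded them tightly. The median size over all probe sets was 0.06. The root mean square difference was 0.119 beside a root mean square standard error of 0.0997, so the differences were little wider than their own error. For comparison, the same measures were 0.187 and 0.115 for the in-utero difference in smoke-exposed adults (SS minus AS). There 436 probe sets passed the adjusted threshold (0.968%), with 3 SS and 3 AS samples in the fit. AS replicates 1 and 2 differed from 3 and 4 by a root mean square of 0.207 to 0.257 over bright, otherwise stable probe sets. Pairs within AA and within SA differed by 0.0848 to 0.132 on that measure. The 95% confidence interval of the SA minus AA difference reached a median of 0.18 to either side. It lay wholly between -1 and 1 for 99.6% of probe sets and wholly between -0.5 and 0.5 for 94.3%. Only 191 probe sets differed by more than 0.5, 61 higher and 130 lower, and 19 by more than 1, 9 higher and 10 lower. The intervals of 3 probe sets left out every difference under 0.5. The size of the intervals comes from 4 AA and 4 SA arrays and from a spread estimated over all 4 groups. An interval that reached 1 or -1 was found for 195 probe sets.

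**Figure D1:**
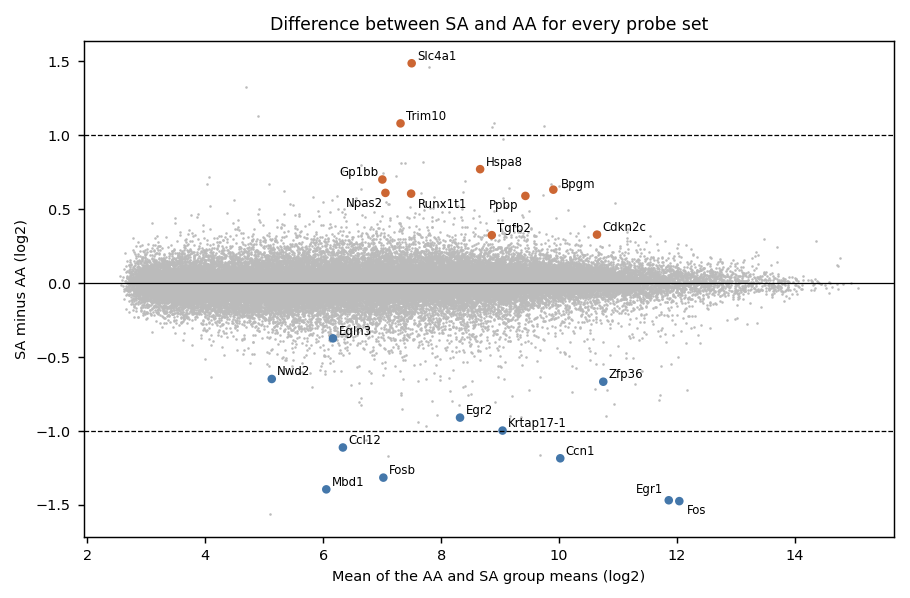
Difference between SA and AA (vertical axis, log2) against the mean level (horizontal axis, log2) for all 45037 probe sets, 1 grey point each, with the genes of the largest differences and 5 others marked in orange (higher in SA) and blue (lower). Dashed lines mark differences of 1 and -1, beyond which 19 probe sets lie, and Fos and Egr1 combine a high level with a difference of -1.47.

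The genes were ranked by p-value among named probe sets whose SA and AA values did not overlap, 12 in each direction. Their differences ran from 0.29 to 0.67 in size and their adjusted p-values (limma) from 0.322 to 0.625, so none is a call. Because non-overlap and a low p chose them, their separation is a description. Of the 24, 9 had a mean level under 6, in the dim part of the range, and 14 were measured at the gene's brightest probe set, the one with the highest mean.

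Cdkn2c, which encodes the p18 inhibitor of the kinases that start the cell cycle, headed the list. It read 10.55, 10.43, 10.52 and 10.42 on AA replicates 1 to 4, and 10.79, 10.83, 10.79 and 10.81 on SA replicates 1 to 4. The SA arrays lay close together, the groups did not overlap, and the difference was 0.33 ± 0.05, a 1.25-fold higher level. Tgfb2, a growth factor of the transforming growth factor beta family that acts in lung branching and repair, read 8.68, 8.61, 8.74 and 8.76 on the AA arrays and 9.01, 8.96, 9.03 and 9.08 on the SA arrays. All 4 of its probe sets pointed the same way, with 0.32 ± 0.06 here and 0.32 at the brightest. Pik3r3, a regulatory subunit of phosphoinositide 3-kinase, had 9.16 to 9.24 in AA and 9.48 to 9.60 in SA, a difference of 0.32 ± 0.06.

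Other genes on the higher side have roles in vessels, muscle and epithelium. Angpt2, an antagonist of the Tie2 receptor that loosens vessel walls, read 8.08, 8.07, 7.96 and 8.18 in AA and 8.33, 8.36, 8.43 and 8.46 in SA, and both of its probe sets were higher. Hdac9, a histone deacetylase of muscle and immune cells, had a difference of 0.55 ± 0.11 at a dim probe set with AA values of 5.62 to 5.91. Muc15, a membrane mucin, had 4.64 to 4.76 in AA and 5.19, 5.22, 5.24 and 4.85 in SA, with replicate 4 close to the controls. The transcription factor Pou4f1 had 0.47 at a level near 4. Mast4, a kinase gene, had 0.29 at its brightest probe set, but only 2 of its 8 probe sets were higher. Dcun1d5 (0.37), Ube2b (0.40) and Txnl1 (0.30), of protein modification and redox control, were ranked at a probe set other than the brightest, which had differences of -0.05, -0.01 and 0.01. The uncharacterised 1700066M21Rik had 0.39, and 0.17 at its brightest probe set.

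On the lower side, Egln3, one of the oxygen-sensing hydroxylases that mark hypoxia-inducible factors for decay, read 6.28, 6.26, 6.44 and 6.44 in AA and 6.04, 5.97, 5.99 and 5.93 in SA. The groups did not overlap, both probe sets of the gene were lower, and the difference was -0.37 ± 0.07. Nwd2 had -0.65 ± 0.12 at a dim probe set, with AA values of 5.26 to 5.72 and SA values of 4.54 to 5.02. Cntn1, a neural adhesion molecule, read 8.11, 7.96, 8.15 and 7.54 in AA and 7.45, 7.44, 7.10 and 7.13 in SA, and all 3 of its probe sets were lower. Bdkrb1, the inducible bradykinin receptor, had 6.13 to 6.51 in AA and 5.34, 5.68, 5.48 and 6.11 in SA, where replicate 4 almost met the controls. The clock repressor Per2 had -0.56 ± 0.12, with all 3 probe sets lower and -0.37 at the brightest. Klf9, a transcription factor induced by glucocorticoids, had -0.44 at the ranked probe set and -0.24 at its brightest, with 5 of 7 probe sets lower. Zfp36 is given with the immediate early genes. Epb41l4b, Esyt1 and Clasp2, of the membrane skeleton, membrane contact sites and microtubule ends, were likewise ranked at another than their brightest probe set, which had -0.05, 0.02 and 0.04. 1700007K13Rik had -0.37 and the noncoding 4930486L24Rik -0.34, each from a single probe set.

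**Figure D2:**
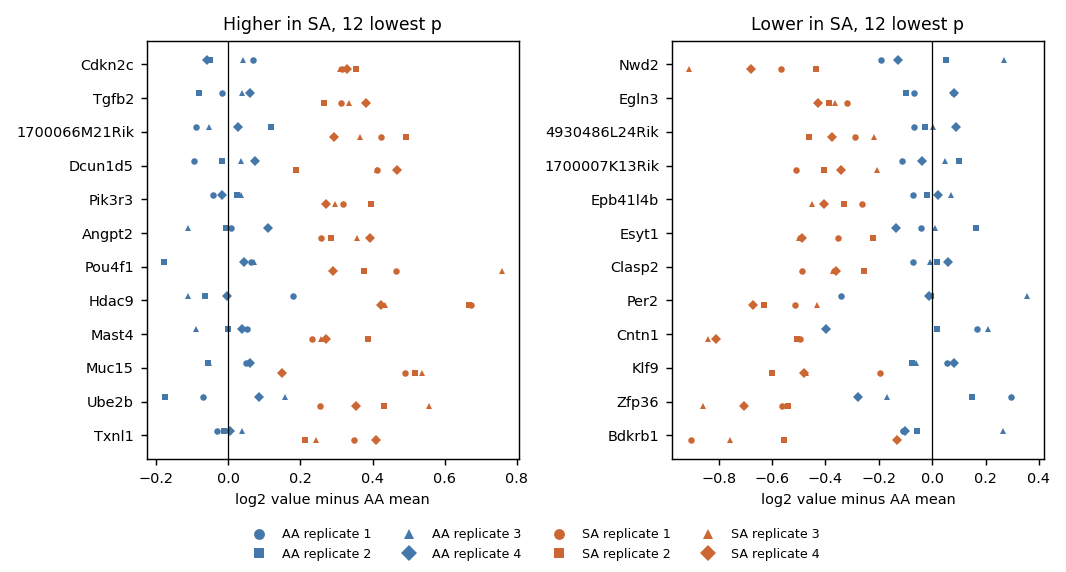
The 24 ranked genes on each array, as log2 value minus the AA mean (horizontal axis). Blue marks are the 4 AA arrays and orange marks the 4 SA arrays, with 1 marker shape per replicate number; the SA values of Cdkn2c lie together near 0.33, while Muc15 and Bdkrb1 have SA replicate 4 close to the controls.

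The sign of a gene without overlap cannot change when 1 array is left out, so the ranking itself was made anew with each SA array left out. When it was made without 1 SA array, 10 of the 24 genes came back without SA replicate 1, 15 without replicate 2, 16 without replicate 3 and 9 without replicate 4. Cdkn2c, Pik3r3, Nwd2 and Egln3 came back in each of these 4 rankings. The array left out gives values that the new ranking had not used. SA replicate 3 lay on the ranked side of the AA mean for 23 of 24 genes chosen without it, and replicates 1 and 2 for 21 of 24 each. SA replicate 4 did so for 13 of 24. The median distance of the left-out array from the AA mean, in the ranked direction, was 0.14 for replicate 1, 0.24 for replicate 2, 0.30 for replicate 3 and 0.07 for replicate 4. In the 3 arrays that chose the genes the median difference was 0.44, 0.37, 0.36 and 0.43, respectively, so the left-out array showed less of it each time. Those counts and distances share the AA arrays with the ranking. AA values that helped to choose the genes also set the AA mean, which by itself favours the ranked side. No expected count was computed, and neither the counts nor the distances carry a test.

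The largest differences were not those with the lowest p-values. Among named probe sets with an unadjusted p under 0.05, the 8 largest on the lower side were at Fos, Egr1, Mbd1, Fosb, Ccn1, Ccl12, Krtap17-1 and Egr2, 5 of which are immediate early genes. Ccl12, a monocyte chemokine, read 7.28, 6.93, 6.93 and 6.42 in AA and 5.53, 5.36, 5.69 and 6.54 in SA. Its difference was -1.11 ± 0.27, and SA replicate 4 alone lay within the AA range. Mbd1, a reader of DNA methylation, had -1.39 at a probe set that varied from 5.98 to 8.08 within AA, and -0.10 at its brightest. Krtap17-1 is named as a hair keratin gene, and its probe set had -0.997 ± 0.28 without overlap. The 8 largest on the higher side were Slc4a1, Trim10, Hspa8, Gp1bb, Bpgm, Npas2, Runx1t1 and Ppbp. Runx1t1, a corepressor, was the only one of these 8 without overlap, with 6.82 to 7.41 in AA and 7.63 to 7.99 in SA.

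Gene lists were used to describe pathways and cell types. Of 647 listed genes, 584 had a probe set with that name alone, read at the brightest. At an unadjusted p under 0.05, 23 of the 584 were higher in SA and 37 lower, or 3.94% and 6.34%, where 2.48% and 2.45% of all 18193 genes were. None passed the adjusted threshold. The lists and their members were chosen with earlier results of these data known, so nothing is read from these shares beside those of all genes. Of the 42 lists, 31 had a median difference under 0.1 in size. Over all genes, 47.7% had a difference below 0.

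Immediate early genes, which are switched on within minutes of a stimulus through kinases that act on factors already bound to their promoters, had the lowest median of any list, -0.46 over 27 genes. Below 0 were 25 of the 27, beside 47.7% of all genes. At an unadjusted p under 0.05, 10 were lower and 0 higher, where 2.45% and 2.48% of all genes were. All 4 SA values lay under all 4 AA values for 9 of the 27, where 1.65% of all genes did. None had an adjusted p (limma) under 0.625.

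Promoter windows of 5 of these genes carry an element through which such signals act, and those of the 3 without overlap between SA and AA are shown. The CArG box is bound by serum response factor, and the cAMP response element, TGACGTCA, by CREB. Windows run from 250 bases before the start to 50 after it, from RefSeq on GRCm38.p6. The search patterns of both elements are the same on either strand, though a single CArG box need not be. The CArG box stands in capitals in Zfp36, from base -58 before the start (chr7:28379179-28379478, minus strand), and in Egr2, from base -72 (chr10:67537316-67537615, plus strand), and the cAMP response element in Btg2, from base -166 (chr1:134079106-134079405, minus strand).
Zfp36: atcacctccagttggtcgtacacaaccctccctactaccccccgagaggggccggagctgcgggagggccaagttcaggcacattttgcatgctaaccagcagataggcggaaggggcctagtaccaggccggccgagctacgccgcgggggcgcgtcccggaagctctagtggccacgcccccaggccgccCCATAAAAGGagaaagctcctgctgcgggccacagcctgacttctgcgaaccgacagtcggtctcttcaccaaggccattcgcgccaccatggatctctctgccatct
Egr2: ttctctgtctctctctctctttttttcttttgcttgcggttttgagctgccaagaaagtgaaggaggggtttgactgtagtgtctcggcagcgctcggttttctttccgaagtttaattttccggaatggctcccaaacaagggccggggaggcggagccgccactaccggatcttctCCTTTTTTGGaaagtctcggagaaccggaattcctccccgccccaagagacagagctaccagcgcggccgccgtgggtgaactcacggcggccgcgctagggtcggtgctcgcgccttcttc
Btg2: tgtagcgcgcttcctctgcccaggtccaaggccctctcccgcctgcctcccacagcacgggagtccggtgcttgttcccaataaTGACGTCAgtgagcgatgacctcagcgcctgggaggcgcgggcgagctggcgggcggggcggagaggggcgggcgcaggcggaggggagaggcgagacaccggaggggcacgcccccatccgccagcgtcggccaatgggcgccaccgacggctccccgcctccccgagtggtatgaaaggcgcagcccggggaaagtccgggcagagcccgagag

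Of the 27 genes, 23 had a window in the table. The CArG box was in those of Egr2 and Zfp36, 2 of 23 genes, and in those of 1.81% of all 27025 genes. The cAMP response element was in those of Dusp1, Btg2 and Maff, 3 of 23 genes, and in those of 2.03% of all genes. These are matches of letters only, and no binding was measured.

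Zfp36, which destabilises cytokine messengers, read 11.38, 11.23, 10.91 and 10.80 on AA replicates 1 to 4 and 10.52, 10.54, 10.22 and 10.38 on the SA arrays. The groups did not overlap, and the difference was -0.67 ± 0.16. Btg2, an antiproliferative gene, read 12.23, 12.29, 12.06 and 11.79 in AA and 11.57, 11.52, 11.15 and 11.11 in SA, a difference of -0.76 ± 0.24. Egr2, a zinc finger factor, read 8.47, 8.88, 9.33 and 8.42 in AA and 7.90, 8.03, 7.77 and 7.76 in SA, a difference of -0.91 ± 0.36.

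Fos, a subunit of the AP-1 factor, was at 13.12, 13.09, 12.61 and 12.28 on the AA arrays and at 11.64, 11.92, 10.61 and 11.03 on the SA arrays. The difference of -1.47 ± 0.41 is 2.78-fold, without overlap. Egr1, a zinc finger factor of growth and stress signals, was at 12.49, 12.84, 12.99 and 12.05 in AA and at 11.31, 11.68, 10.75 and 10.75 in SA, also without overlap, with a difference of -1.47 ± 0.37. Junb, another AP-1 subunit, was at 8.57, 9.18, 8.71 and 8.46 in AA and at 8.07, 8.18, 7.91 and 7.94 in SA, a difference of -0.70 ± 0.19. The secreted matrix protein Ccn1 had -0.79 at its brightest probe set, Csrnp1 -0.56 and Ier2 -0.46, each without overlap.

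For some of these genes AA replicate 3 lay far above the other controls. It held 10.73 for the stress factor Atf3, where the other AA arrays held 8.52 to 9.13 and the SA arrays 8.49 to 8.54, and the difference of -0.80 was -0.33 without it. The orphan nuclear receptor Nr4a3 was at 11.28 there, against 8.23 to 9.24 on the other AA arrays and 8.53 to 8.89 in SA, and its difference of -0.65 was -0.013 without that array. Fosb also had its highest value there, 9.10 against 6.65 to 7.50 on the other AA arrays and 6.14 to 6.65 in SA, but its difference of -1.32 was still -0.84 without it, since AA replicates 1 and 2 also lay above every SA value. Without AA replicate 3 the list median was -0.33, and 9 of the 27 genes were lower at an unadjusted p under 0.05. At the other end, Klf2, Klf4, Klf6, Ier5, Jund, Jun, Ier3 and Fosl2 differed by 0.14 or less, so the difference was not shared by the whole list.

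The mean of the 27 genes, relative to AA, was -0.24, 0.01, 0.48 and -0.24 on AA replicates 1 to 4 and -0.53, -0.42, -0.60 and -0.60 on SA replicates 1 to 4. All SA arrays lay under all AA arrays, and they spread less, with an SD of 0.08 against 0.34. The median was -0.47 to -0.56 whichever SA array was left out, and 10 or 11 genes were then lower at an unadjusted p under 0.05. In smoke-exposed adults, on other arrays, the list had a median of -1.24 for SS minus AS, with 25 of 27 below 0 and 13 lower past the adjusted threshold (limma; 0.467% of all genes were). Among the 13, Zfp36 had -1.73, Junb -1.83, Egr1 -2.43 and Fos -2.25. The levels behind that contrast were not those of SA and AA. Relative to AA, the list mean was 1.07, 1.54, 0.45 and 0.46 on AS replicates 1 to 4. It was -0.08, -0.11, 0.03 and -0.55 on SS replicates 1 to 4. The SS arrays other than replicate 4 thus lay within the AA range and above every SA array. Whether the in-utero differences differ between air-exposed and smoke-exposed adults was tested by the interaction, and of the 27 only Klf2 passed, with -1.05 (limma, adjusted p = 0.0399), where 0.131% of all probe sets did.

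**Figure D3:**
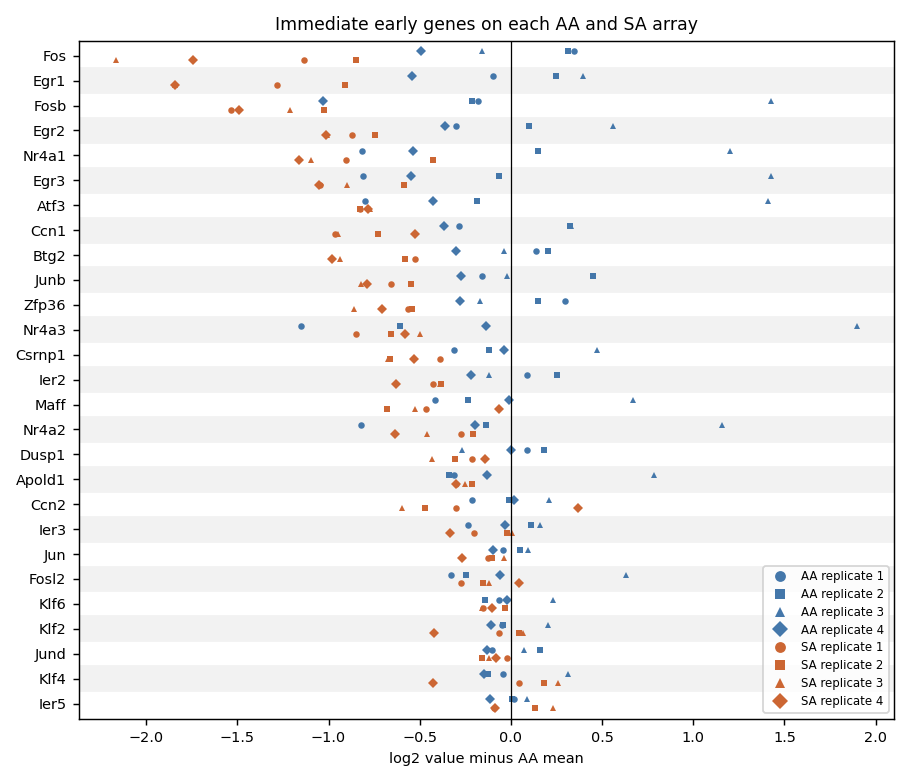
The 27 immediate early genes on each AA (blue) and SA (orange) array, as log2 value minus the AA mean on the horizontal axis, ordered by difference. For Fos, Egr1, Egr2, Btg2, Junb and Zfp36 the groups do not overlap, while Atf3 and Nr4a3 are high on AA replicate 3 alone.

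Genes induced by glucocorticoids, the adrenal stress hormones, had a median of -0.33, with 13 of 14 below 0, beside 47.7% of all genes. At an unadjusted p under 0.05, 5 were lower and 0 higher, where 2.45% and 2.48% of all genes were. Per1, a clock repressor that glucocorticoids induce directly, read 9.30, 9.62, 9.92 and 9.61 in AA and 9.41, 8.13, 8.55 and 8.77 in SA. The difference was -0.90 ± 0.21, with SA replicate 1 within the AA range. Errfi1, an inhibitor of epidermal growth factor receptor signals, read 12.22, 12.31, 13.16 and 12.45 in AA and 12.22, 11.51, 11.73 and 11.78 in SA, where replicate 1 nearly met the controls. Angptl4, which inhibits lipoprotein lipase, had -0.58, and Pdk4, a pyruvate dehydrogenase kinase, -0.46. The list mean was -0.07, -0.71, -0.55 and -0.05 on SA replicates 1 to 4, so replicates 2 and 3 were low and replicates 1 and 4 lay within the AA range of -0.26 to 0.23. The median was -0.23 without SA replicate 2 and -0.40 without replicate 4. In smoke-exposed adults the median of the in-utero difference was 0.33, with 4 of 14 below 0. Per1 (-0.30) and Errfi1 (-0.47) were below 0 there too, and the only member past the adjusted threshold was lower, Dusp1 with -1.03 (limma, adjusted p = 0.00531), which is also on the immediate early list. The interaction for Klf9 was 0.63 at the brightest probe set, which this list uses, and did not pass (limma, adjusted p = 0.155), while at the ranked probe set it was 0.98 and passed (limma, adjusted p = 0.0241).

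The circadian clock is a loop in which Arntl, Clock and Npas2 drive the Per, Cry and Nr1d repressors and output factors such as Dbp. Npas2 read 7.20, 6.51, 6.44 and 6.85 in AA and 7.93, 7.32, 6.99 and 7.20 in SA, a difference of 0.61 ± 0.25. Arntl had 0.29 and Clock 0.12. On the repressor and output side, Dbp had -0.90 ± 0.36, Per1 -0.90, Nr1d1 -0.38, Per2 -0.37, Nr1d2 -0.33 and Cry2 -0.18, while Cry1 had 0.21. In all, 11 of 17 were below 0, beside 47.7% of all genes. At an unadjusted p under 0.05, 4 were lower and 2 higher, where 2.45% and 2.48% of all genes were. The median of -0.18 was -0.14 to -0.25 with any SA array left out. Dbp read 9.08, 10.54, 9.68 and 9.90 in AA and 8.30, 9.11, 9.71 and 8.48 in SA, so the groups overlapped. Clock genes change over the day, and the hour at which the lungs were taken is not in the labels. Its part in the result was not tested.

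Endoplasmic reticulum stress genes, which help fold secreted proteins, had a median of -0.14, with 15 of 18 below 0, beside 47.7% of all genes. At an unadjusted p under 0.05, 6 were lower, where 2.45% of all genes were. Manf, a secreted protein of the stressed reticulum, read 11.73, 11.90, 12.01 and 11.94 in AA and 11.21, 11.41, 11.77 and 11.77 in SA, a difference of -0.35 ± 0.11. The chaperone Hspa5, also called BiP, read 13.01, 13.20, 13.14 and 13.17 in AA and 12.70, 12.79, 13.05 and 13.03 in SA. SA replicates 1 and 2 were below every control for both genes, and replicates 3 and 4 lay within the AA range. Ddit3, a factor that promotes cell death under lasting stress, had -0.24 ± 0.08 without overlap, Creld2 -0.27, Herpud1 -0.22 and Pdia6 -0.21. The list median was -0.09 without SA replicate 2 and -0.18 without replicate 4.

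Chemokines of neutrophils and monocytes had a median of -0.14, with 11 of 13 below 0, and cytokines with their feedback inhibitors had -0.08. Nfkbia, the inhibitor that NF-kB induces against itself, read 13.50, 13.41, 13.60 and 13.45 in AA and 13.30, 13.21, 13.15 and 13.23 in SA. The groups did not overlap, and the difference was -0.27 ± 0.07. Il6 had -0.61 ± 0.50, with 5.21, 5.52 and 5.22 on SA replicates 1 to 3 and 6.95 on replicate 4, while AA ran from 5.75 to 6.95. Ccl7 and Ccl2, both monocyte chemokines, behaved alike, with -0.42 and -0.35 and SA replicate 4 within the AA range. Cxcl12, which retains stem cells and lymphocytes in tissue, was higher by 0.13 ± 0.06 without overlap. Neutrophil markers had a median of -0.20, with 10 of 13 below 0 and only the decoy receptor Il1r2 (-0.34) lower at an unadjusted p under 0.05. The granule proteins S100a8 and S100a9 had -0.59 ± 0.38 and -0.51 ± 0.38, and S100a8 ran from 10.61 to 12.59 within AA alone.

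Adipocyte markers had a median of -0.17, with 6 of 9 below 0 and 3 above, the highest at 0.11. At an unadjusted p under 0.05, 4 of the 9 were lower, where 2.45% of all genes were. The fat hormone gene Adipoq read 7.87, 7.80, 8.01 and 7.08 in AA and 6.96, 7.27, 7.36 and 6.20 in SA, a difference of -0.74 ± 0.28. Retn had -0.39 ± 0.10 without overlap, Pck1, of glucose and glycerol synthesis, -0.45, and the lipid chaperone Fabp4, which macrophages also make, -0.36. Leptin (Lep), which defines white fat, stayed between 4.58 and 4.73 on all 8 arrays, at the dim end of the range. The list mean was -0.36 to -0.14 in SA and -0.19 to 0.11 in AA. In whole lung, fewer cells of a type and less RNA per cell cannot be told apart.

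Red cell and platelet genes led the higher side of the table, and SA replicate 4 was the highest array for each of those named here except Ank1. Slc4a1, the anion exchanger of red cells, read 6.15, 6.07, 7.22 and 7.59 on the AA arrays and 7.21, 7.98, 7.50 and 10.29 on the SA arrays. Its difference of 1.49 ± 0.55 was 0.80 without SA replicate 4. Alas2, the first enzyme of haem synthesis in red cells, read 9.24, 8.41, 9.75 and 10.68 in AA and 9.65, 10.22, 10.26 and 11.95 in SA, with 1.001 ± 0.59 and 0.52 without replicate 4. Trim10 had 1.08 (0.49 without it), the red cell enzyme Bpgm 0.63 (0.31), the platelet glycoprotein Gp1bb 0.70 (0.47) and the platelet chemokine Ppbp 0.59 (0.39). Of the 8 erythroid genes with a name of their own on the array, 7 were above 0, and besides Slc4a1 and Alas2 they were Rhag (0.41), Gata1 (0.16), Ank1 (0.14), Epb42 (0.10) and Klf1 (0.06), with Hba-a1 at -0.07. Rhag read 4.86 on SA replicate 4 and 3.16 to 3.41 on the other AA and SA arrays, and its difference was 0.015 without replicate 4. Hba-a1 read 3.58 to 4.06 on the AA and SA arrays. Both probe sets were thus in the dim part of the range, where a difference says little. The erythroid mean was -0.05, 0.35, 0.06 and 1.27 on SA replicates 1 to 4 and -0.26 to 0.34 in AA. The median was 0.15, and 0.05 without SA replicate 4.

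The same array was also high for dividing cells and for contractile genes. Cell cycle genes averaged 0.85 above AA on SA replicate 4, and -0.05, 0.00 and -0.05 on the other 3 SA arrays. Mki67, the proliferation antigen Ki-67, read 7.67, 7.73 and 7.82 on SA replicates 1 to 3, 9.42 on replicate 4, and 7.56 to 7.90 in AA. The list median was 0.18 with all arrays and -0.04 without replicate 4. Smooth muscle and pericyte markers had a median of 0.14 with all 15 above 0. At an unadjusted p under 0.05, 4 were higher, where 2.48% of all genes were. Higher without overlap were 4, where 2.22% of all genes were. Their mean was 0.03, 0.07, 0.09 and 0.40 on SA replicates 1 to 4 and -0.05 to 0.06 in AA, and the median was 0.05 without replicate 4. Some members did not rest on that array. Pdgfrb, the growth factor receptor of pericytes, read 11.23, 11.31, 11.16 and 11.19 in AA and 11.58, 11.36, 11.40 and 11.38 in SA, with 0.21 ± 0.06, and 0.22 without replicate 4. Synpo2, an actin-binding protein of muscle, had 0.24, and 0.23 without it. Smooth muscle myosin, Myh11, had 0.27, and 0.18 without it, and smooth muscle actin, Acta2, 0.23 and 0.05.

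**Figure D4:**
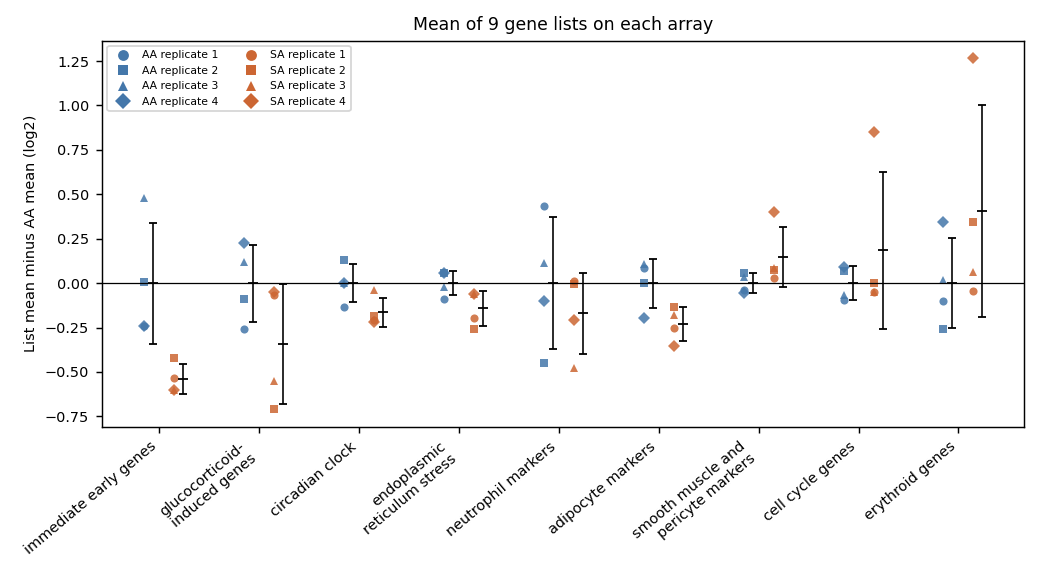
Mean of 9 gene lists on each array, relative to the AA mean (vertical axis, log2), with blue marks for AA and orange marks for SA, 1 shape per replicate number, and black bars for the group mean ± SD (n = 4). Immediate early genes are low on all 4 SA arrays, glucocorticoid-induced genes on replicates 2 and 3, and cell cycle, smooth muscle and erythroid genes are high on SA replicate 4.

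Cholesterol synthesis had a small difference that was spread over the arrays. Its mean was 0.11, 0.06, 0.16 and 0.13 on SA replicates 1 to 4 and -0.06 to 0.03 in AA, without overlap, and 13 of 14 genes were above 0. Cyp51 had 0.23 ± 0.10 and Sqle, the epoxidase of the pathway, 0.16 ± 0.06, and both were higher at an unadjusted p under 0.05. Hmgcs1, which supplies the substrate of the rate-limiting step, read 11.82 to 11.92 in AA and 11.96 to 12.12 in SA. The median of 0.10 was 0.09 to 0.13 with any SA array left out.

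Pathways that smoke itself engages showed little in these air-breathing adults. AhR targets had a median of 0.00 over 9 genes. Cyp1a1, the hydrocarbon-metabolising enzyme that AhR induces, read 8.81, 7.77, 8.22 and 8.53 in AA and 8.69, 8.39, 8.32 and 8.50 in SA, a difference of 0.14 ± 0.17. Ahrr, the repressor of the receptor, had 0.22 ± 0.09 without overlap, at a level under 4, among the dimmest on the array. NRF2 targets had a median of -0.01 over 15 genes, and Gclc, which limits glutathione synthesis, had -0.33 ± 0.10, with 11.31 to 11.83 in AA and 11.17 to 11.38 in SA. Nicotinic and muscarinic receptors had a median of -0.05. The nicotinic receptor subunit Chrna7 read 6.13, 6.55, 6.49 and 6.77 in AA and 5.95, 5.80, 6.21 and 6.30 in SA, a difference of -0.42 ± 0.14, with overlap.

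Genes of asthma, development and epigenetic control were also near 0 as lists. Type 2 immunity and mucus had a median of -0.01 over 20 genes, with 2 higher at an unadjusted p under 0.05, where 2.48% of all genes were. Gata3, the lead factor of type 2 lymphocytes, read 6.94, 7.01, 6.69 and 6.69 in AA and 6.93, 7.40, 7.48 and 7.64 in SA, a difference of 0.53 ± 0.14 with SA replicate 1 within the AA range. Arg1, an arginase of alternatively activated macrophages, had 0.32 ± 0.09 without overlap at a level near 5. Lung development regulators had a median of 0.01 over 25 genes, and imprinted growth genes 0.00 over 15, with 0 of either at an unadjusted p under 0.05. In the list of transforming growth factor beta and bone morphogenetic protein signalling, with a median of 0.05 over 22 genes, Tgfb2 and Bmp4 (0.23 ± 0.09) were higher and Id1 (-0.18) lower. DNA methylation enzymes had a median of 0.07 over 11 genes. Uhrf1, which guides methylation after replication, had 0.40 ± 0.18, and 0.17 without SA replicate 4, on which cell cycle genes were high; their part in that difference was not tested. The methyltransferases Dnmt1, Dnmt3a and Dnmt3b had 0.04, 0.09 and 0.05.

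Epithelial and endothelial markers of the lung had small medians. They were -0.01 for alveolar type 2 cells over 11 genes, 0.02 for type 1 cells over 10, -0.03 for club cells over 11, -0.08 for ciliated cells over 13 and 0.00 for endothelium over 17, with 0 members at an unadjusted p under 0.05 in each. Alveolar macrophages had 0.02, T and NK cells -0.06, B and plasma cells -0.03, MHC class II genes -0.08, interferon-stimulated genes 0.01 and respiratory chain subunits 0.00. In the interferon list, Rsad2, an antiviral enzyme named here after its values were seen, was 1 of the 19 probe sets beyond 1. It read 9.02, 8.55, 9.35 and 9.94 in AA and 9.30, 9.95, 9.74 and 12.13 in SA, a difference of 1.06 ± 0.54, and 0.45 without SA replicate 4. The list mean was 0.33 on that array and -0.04 to 0.02 on the other SA arrays. Fibroblast markers had a median of 0.00 over 13 genes, with 1 higher and 1 lower at an unadjusted p under 0.05. The higher one was Lum, a collagen-binding proteoglycan, with 0.52 ± 0.14. Its AA values were 8.43 to 9.24 and its SA values 9.24 to 9.63, with overlap. The lower one was Dpt, with -0.17 ± 0.07 and no overlap. Plin2 (-0.15) was also lower without overlap. Collagen chains had 0.00, and the list mean was 0.35 on SA replicate 4 and -0.10 to -0.02 on the other SA arrays. In all, 16 of the 42 lists had no member at an unadjusted p under 0.05.

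**Figure D5:**
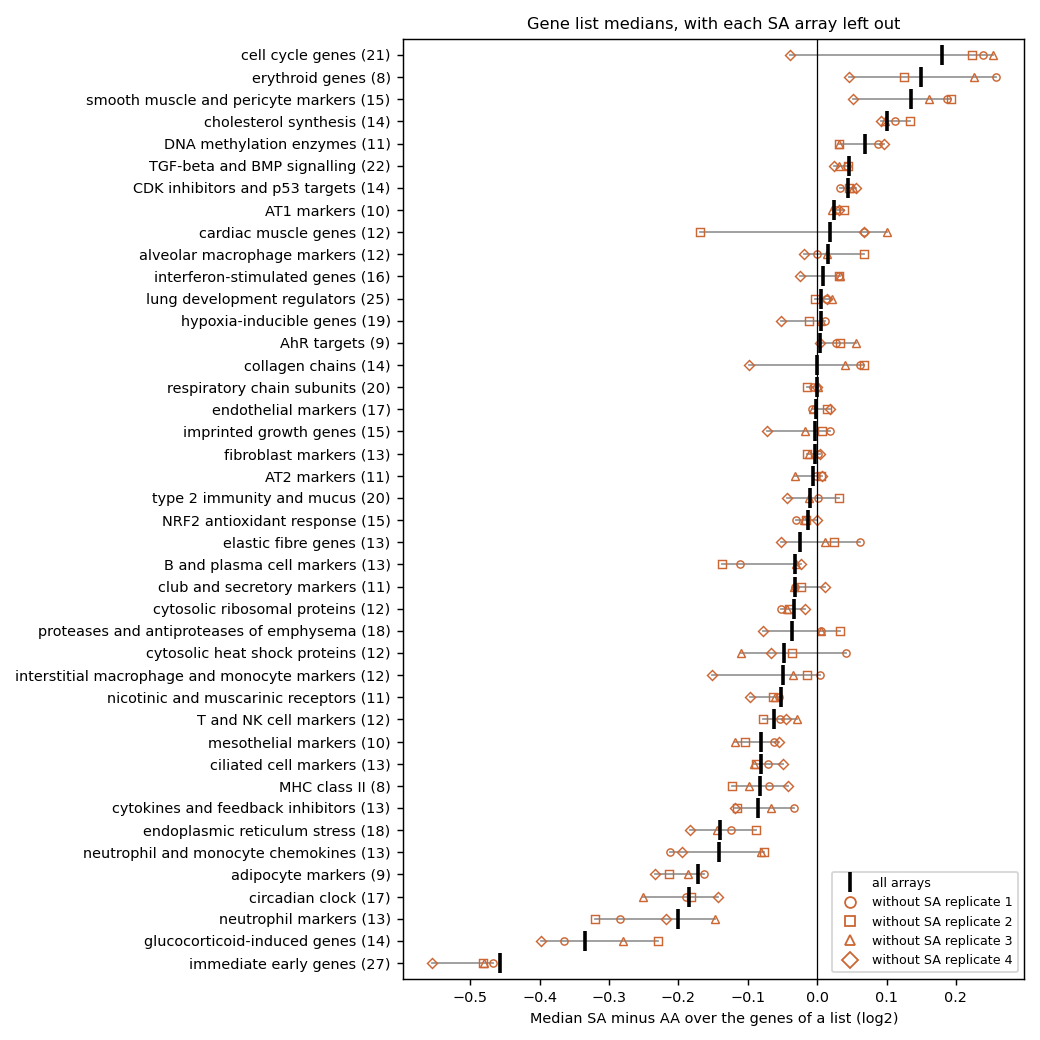
Median difference between SA and AA over the genes of each of the 42 lists (horizontal axis, log2; number of genes in brackets), with all arrays as a black bar and with each SA array left out as an open mark. Immediate early genes stay between -0.56 and -0.46, while the cell cycle list moves from 0.18 to -0.04 without SA replicate 4.

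Of the 11 lists with a median of at least 0.1 in size, 7 were below 0 and 4 above. With each SA array left out in turn, 5 of them kept at least 0.1 in each of the 4 fits: the immediate early, glucocorticoid-induced, clock, neutrophil and adipocyte lists. The chemokine, endoplasmic reticulum stress, cholesterol, erythroid, smooth muscle and cell cycle lists dropped below 0.1 in at least 1 fit. The cholesterol median started at 0.10 and fell only to 0.09. Among the 11 lists, the list means of SA and AA did not overlap for the immediate early and cholesterol lists and overlapped for the others. Leaving out an AA array mattered as well, and without AA replicate 3 the chemokine median was -0.09.

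The SS and AS arrays, which share no animal with SA and AA, carry the same in-utero contrast under adult smoke. Pearson's r between the 2 in-utero differences was 0.0941 over the 45037 probe sets and Spearman's rho was 0.0881, a description across features that share arrays. Of the 24 ranked genes, 11 had the same sign in SS minus AS, 6 of the 12 higher and 5 of the 12 lower ones. At an unadjusted p under 0.05 (limma), 6 of them kept their direction there, where 7.22% of all probe sets were higher and 6.39% lower. They were 1700066M21Rik (0.22), Dcun1d5 (0.28), Pik3r3 (0.16), Mast4 (0.26), Zfp36 (-1.73) and Bdkrb1 (-0.43). The opposite direction at that p was seen for 4, Cdkn2c (-0.15), Pou4f1 (-0.29), Epb41l4b (0.42) and Klf9 (0.55). The interaction passed for 3 of these, Cdkn2c (-0.48, limma, adjusted p = 0.0278), Epb41l4b (0.79, limma, adjusted p = 0.015) and the ranked probe set of Klf9. They were chosen for their SA minus AA difference, which enters the interaction with its sign turned, so nothing is read from that count beside the share over all probe sets. Of the 896 probe sets whose SA values lay above all AA values, 608 (67.9%) were also higher in SS than in AS, where 47.3% of all probe sets were. Of the 762 that lay below, 505 (66.3%) were lower there, beside 52.7% of all probe sets. Probe sets share arrays and genes, and these shares carry no test.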

How the data were processed

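Expression was read on 1-colour Affymetrix arrays of total RNA from the left lung, and the labels name each array a biological replicate. The authors deposited 1 log2 value per probe set and array. How they corrected background and normalized is not given in the sources used here. The submitters' processing notes name limma without a version. Array medians differed by little, so differences are relative to whatever that normalization equalised. Control probe sets (64) were left out. Gene names came from the platform annotation, updated through RefSeq, and only probe sets with 1 symbol (34945 of 45037) were named.

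Replicate arrays were compared first. AS replicates 3 and 4 and SS replicates 1 and 2 differed by little more than technical noise. They were averaged despite those labels, which left 14 samples. R 4.3.3 with limma 3.58.1 then gave a mean per group and moderated two-sided tests (10 residual degrees of freedom), with Benjamini-Hochberg adjustment over all probe sets. The script was tested on simulated data. The number of arrays limits the precision.

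Named genes were, in each direction, the 12 lowest p-values without overlap and the 8 largest differences at an unadjusted p under 0.05, and for each list up to 4 members with the lowest p-value and 2 others with the largest difference; Uhrf1, Dnmt1, Dnmt3a, Dnmt3b, Pdia6, Nr1d1, Nr1d2, Arntl, Clock and Lep were named for completeness after their values were seen. The members and lists were chosen with earlier results of these data known. Alternatives were other sample sets, a replicate block, further normalization, a level filter, 1 probe set per gene, array weights, other moderation and leaving out each array.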

Additional observations from a re-analysis of the deposited data

Results flagged for a closer look

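A value was marked when the gap between the highest or lowest of 4 arrays and its neighbour took up more of the group's range than Dixon's critical value for that number allows. Chance flags about 1 in 20 groups, and 33 of 444 groups of values (7.43%) were marked. SA replicate 4 held 16 of the 33.

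Red cell, dividing cell and contractile genes made up most of those on SA replicate 4, which was the highest SA array for Bpgm (gap 0.851 of the range), Rhag (0.852), Rrm2 (0.89), Birc5 (0.986), Mki67 (0.914), Ccnb2 (0.948), Top2a (0.831), Acta2 (0.855) and Cspg4 (0.887). Gclm, of glutathione synthesis, with 0.921, and the nicotinic subunit Chrnb2, with 0.861, were also highest there, and the mucin Muc15, with 0.875, was lowest. The same array held the highest list mean for cell cycle genes (0.946), smooth muscle and pericytes (0.845), interstitial macrophages and monocytes (0.866) and proteases and antiproteases of emphysema (0.89).

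On other SA arrays, Cxcl12 (0.895) and the cystine transporter gene Slc7a11 (0.868) were highest and Cry1 (0.939) lowest on replicate 3. Tiparp, an AhR target, was highest on replicate 1 (0.933). On replicate 2, Mbd4 was highest (0.897) and the mitophagy gene Bnip3 lowest (0.883).

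Among the controls, AA replicate 3 was highest for Bdkrb1 (0.856), Cxcl1 (0.871), Cxcl2 (0.887) and the mean of cytokines and feedback inhibitors (0.922). AA replicate 2 was lowest for Pou4f1 (0.882) and the platelet gene Ppbp (0.873) and highest for Chrna1 (0.837). On AA replicate 1, Idi1, of cholesterol synthesis, was lowest (0.948) and Cdkn2d highest (0.858). On AA replicate 4, Bnip3 (0.888) and Chrm1 (0.883) were highest.

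At 4 named probe sets the interaction (SS minus AS) minus (SA minus AA) passed the adjusted threshold with limma, where 0.131% of all probe sets did. It was -0.48 for Cdkn2c (adjusted p = 0.0278) and -1.05 for Klf2 (adjusted p = 0.0399), and it was 0.785 for Epb41l4b (adjusted p = 0.015) and 0.98 for the ranked probe set of Klf9 (adjusted p = 0.0241), while the brightest probe set of Klf9 had 0.63 (adjusted p = 0.155). Cdkn2c, Epb41l4b and Klf9 were chosen for their SA minus AA difference, which enters the interaction with its sign turned. Nothing is therefore read from the count of 4.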

How the results depend on the processing

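The count of 0 probe sets at an adjusted p under 0.05 (limma) held in 17 of 18 alternatives, among them each of the 8 fits without 1 array, where the smallest adjusted p ran from 0.143 to 0.906. The exception was the unmoderated test, with 3. Deviations of same-numbered AA and SA arrays correlated at -0.157 to 0.251, and those of differently numbered arrays at -0.261 to 0.282. No pairing by number was visible, but 4 arrays per group cannot show that there was none. With the replicate block, 0 probe sets passed and 2742 had an unadjusted p under 0.05. That count was 1379 above the median level and 1021 with the brightest probe set per gene, where fewer were tested, and 2103 to 3228 without 1 array. Values without overlap numbered 981 and 704 in the same restrictions and 2519 to 3835 without 1 array, where fewer arrays have to separate. The share of intervals within 1 of 0 was 99.383% above the median level, 99.318% unmoderated and 99.332% to 99.556% without 1 array. The SD of the differences was 0.108 with the brightest probe set per gene and 0.12 to 0.136 without 1 array. Above the median level, the erythroid median was 1.001, with the dim members left out.

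Of 180 named genes, 12 changed sign in a fit without 1 array, among them Ccnb2 and Top2a with 0.30 and 0.26 over all arrays. The ranges were -0.15 to 0.0139 for Klf2, -0.24 to 0.084 for Fosl2, -0.0135 to 0.0938 for Ier5, -0.0684 to 0.16 for Klf4, -0.16 to 0.000665 for Hba-a1, -0.021 to 0.13 for Klf1, -0.23 to 0.29 for Epb42, -0.000769 to 0.41 for Ccnb2, -0.13 to 0.43 for Top2a, -0.0466 to 0.299 for Cyp1a1, -0.0389 to 0.11 for Gclm and -0.0055 to 0.15 for Dnmt3l. SA replicate 4 was the array left out for Klf2, Klf1, Epb42, Ccnb2, Top2a, Gclm and Dnmt3l. The cause was not tested. List medians stayed within their spread in 749 of 756 recomputations.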
